A study of Mus musculus with 18 samples.

Results

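The constitutive proteasome is the protease of cytosol and nucleus that breaks down ubiquitin-tagged proteins. Its core particle is a barrel of alpha rings, which gate the entrance, around beta rings, in which Psmb5, Psmb6 and Psmb7 encode the proteolytic subunits. A regulatory particle sits on the core: its base holds the ATPases that unfold substrates (Psmc genes), large scaffold subunits and a ubiquitin receptor, and its lid holds the deubiquitinase that removes ubiquitin (Psmd14). In macrophages stimulated with interferon, the alternative catalytic subunits Psmb8, Psmb9 and Psmb10 replace the constitutive ones, and peptides made by proteasomes are loaded on class I molecules.

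The genes described here are those with symbols of Psma, Psmb, Psmc or Psmd followed by a number, without the immunoproteasome genes Psmb8, Psmb9 and Psmb10, and with at least 10 counts in at least 3 libraries. Of 30530 genes in the table, 36 had such a symbol and 35 passed the count minimum. They are 8 alpha ring and 7 beta ring genes, which make up the 15 core genes, 9 base genes, 8 lid genes and 3 genes of base assembly factors (Psmd5, Psmd9 and Psmd10), which share the naming but leave the finished particle. Psmb11, the thymus-restricted catalytic subunit, fell under the minimum with 0 to 2 counts per library, 5 counts in 4 of 18 libraries. Psma8, the testis-restricted alpha subunit, reached 10 counts in all 18 libraries, with 12 to 232 counts per library. It remained low, at 0.823 to 2.09 CPM, the counts scaled to library size. All 35 genes were among the 12741 genes with enough counts to be tested.

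RNA-seq of poly(A)-selected RNA gave counts per gene for macrophages that had been cultured from mouse bone marrow, the tissue source of these phagocytes. The study examined how 25-hydroxycholesterol (25HC), an oxysterol that the enzyme encoded by Ch25h makes from cholesterol, alters the response to PAM3 (Pam3CSK4), a lipopeptide that activates Toll-like receptors on macrophages. There were 6 groups of 3 libraries, numbered by mouse from 1 to 3. Ch25h-/- cells, which received no 25HC, were either stimulated with PAM3 or kept at rest. C57BL/6 (B6) cells were treated with 5 µM 25HC for 18 hours and then stimulated with PAM3, or received PAM3 without 25HC. The remaining B6 cells received 25HC and no PAM3, or neither agent. PAM3 was given at 300 ng/mL. The labels give a stimulation time of 18 for PAM3 and of 0 for rest, with no unit, and do not say whether resting cells were harvested at the same hour, so the stimulus and culture time cannot be told apart. The labels give neither the age nor the sex of the mice, nor the extent of the Ch25h deletion.

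Library depth ran from 14.04 to 150.4 M counts, and the 35 proteasome genes took 0.216 to 0.531% of them. Ch25h lay at 0 to 0.119 CPM in the 6 Ch25h-/- libraries and at 1.66 to 40.8 CPM in the 12 B6 libraries. Macrophage markers (8 genes) summed to 20500 to 59400 CPM in every library, lowest in 25HC-treated B6 at rest (20500 to 22200 CPM) and highest with PAM3 in untreated B6 (45800 to 59400 CPM) and Ch25h-/- cells (50400 to 54800 CPM). That order is of the sums, in which Lyz2 was the largest part, and not of each marker. With PAM3 in untreated B6 5 of the 8 were called higher and 3 lower, and with 25HC at rest 1 higher and 5 lower. Lists for fibroblasts, neutrophils, dendritic cells and osteoclasts summed to at most 44.5 CPM, reached by neutrophil markers in a Ch25h-/- library at rest, and T cell markers to at most 0.0686 CPM with Cd3e and Cd3g at 0 throughout. The part of these differences in the proteasome values was not tested. Replicate 2 at rest stood apart from its group on the third principal component (7.93% of variance), and it is also the library in which most proteasome genes were lowest at rest: 33 of 35 in Ch25h-/- cells, 35 of 35 in 25HC-treated B6 and 29 of 35 in untreated B6, against 43.9, 44.3 and 44.0% of all tested genes. In untreated B6 with PAM3, replicate 3 was highest for 32 of 35 genes, against 37.7% of all tested genes.

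Because every group holds 1 library of each number, each count of calls among the 35 genes below is also given with number 2 left out of all groups. The proteasome genes moved together between libraries of a group: their summed level was 4858, 4645 and 5075 CPM in Ch25h-/- cells with PAM3 and 2808, 2084 and 2656 CPM in Ch25h-/- cells at rest. Sums were 4787, 5072 and 4660 CPM in B6 with 25HC and PAM3, against 4982, 4942 and 5976 CPM with PAM3 alone. At rest they were 3791, 3058 and 3477 CPM with 25HC, against 2999, 2474 and 2722 CPM without it. The PAM3 sums lay above all sums at rest in each arm, whereas the sums with and without 25HC did not overlap at rest and overlapped under PAM3. In bulk libraries, fewer cells of a type and less RNA per cell cannot be told apart.

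**Figure D1:**
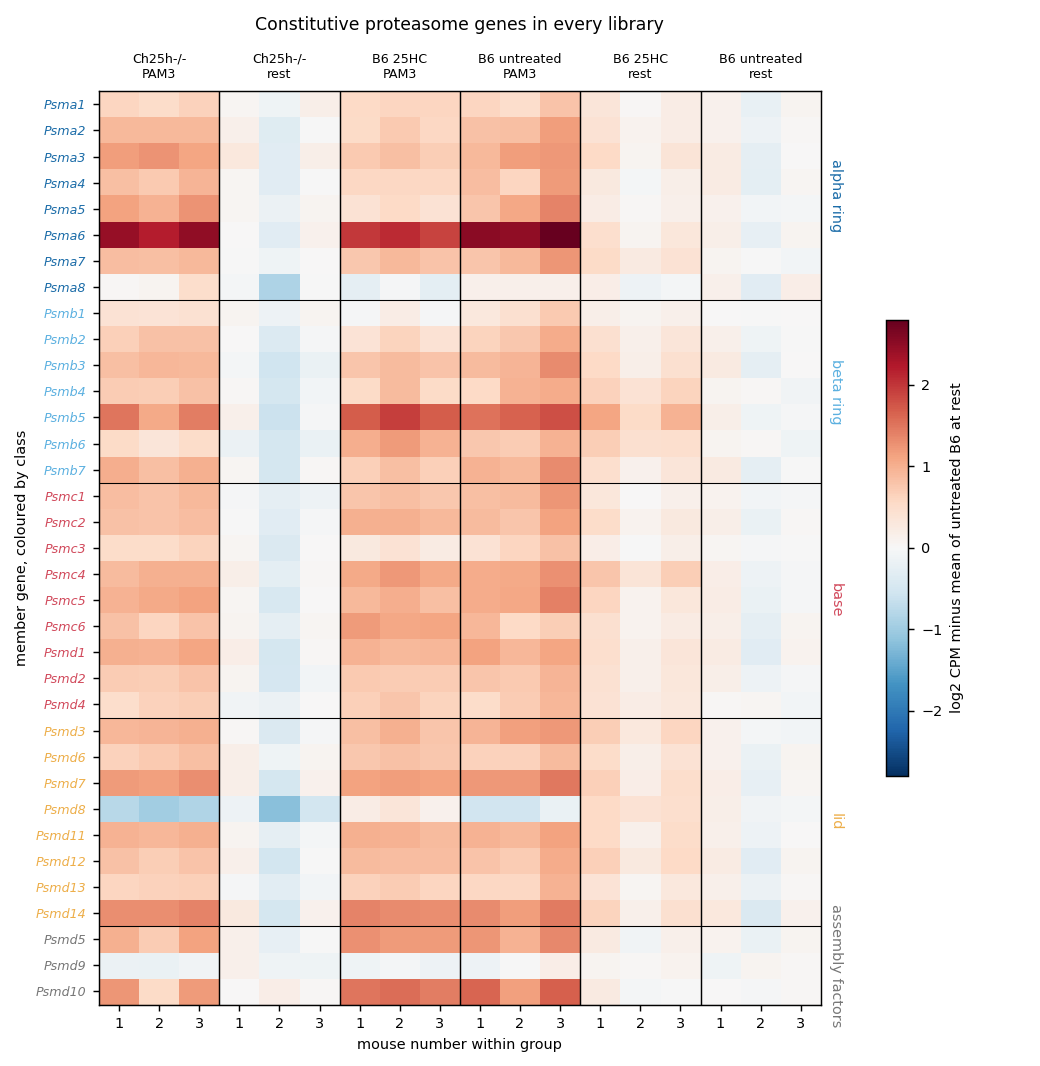
Level of each of the 35 genes (rows, grouped and coloured by class) in each of the 18 libraries (columns, mouse numbers 1 to 3 in each group), as log2 CPM minus the gene's mean in untreated B6 at rest. Red is higher and blue lower: Psma6 stands out in the PAM3 columns, Psmd8 is blue in Ch25h-/- and in untreated B6 with PAM3, and replicate 2 at rest is pale or blue in most rows.

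Levels were compared between genes after division by the length of the principal transcript. The median of the 35 genes was 88.6 CPM per kb in Ch25h-/- cells with PAM3 and 42.5 at rest. In B6 it was 90.6 CPM per kb with 25HC and PAM3, 94.4 with PAM3 alone, 56.9 with 25HC at rest and 43.1 in untreated cells at rest. By class, medians in untreated B6 were 84.2 CPM per kb with PAM3 and 44.7 at rest for the alpha ring, and 122 and 67.5 for the beta ring, again with PAM3 given first. The alpha ring median includes the low Psma8. Without it the middle gene was Psma4, at 113 CPM per kb with PAM3 and 60.7 at rest, so the order of alpha ring and base depends on Psma8. The base had medians of 110 CPM per kb with PAM3 and 55.6 at rest, and the lid of 69.7 with PAM3 and 37.5 at rest. The 3 assembly factors were lower, at 15.7 CPM per kb with PAM3 and 9.62 at rest. The highest gene per length in untreated B6 was Psma6 with PAM3 (586 CPM per kb) and Psmd8, a lid subunit, at rest (146 CPM per kb), and Psma8 was the lowest in both (0.979 with PAM3 and 0.894 at rest).

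Near-identical copies limit some of these values, since the sources at hand do not give how reads that align in several places were counted. Psma5 has the processed pseudogene Gm8394, identical over 98.634% of 952 bases, which held 140% of the counts of Psma5. Psmb3 and Psmd2 have the pseudogenes Gm4950 and Gm5422 with 35.4 and 26.6% of their counts. Psma3, Psma4, Psmb5, Psmc1 and Psmd11 match other annotated genes at 95% identity or more over at least 200 bases that are not rows of the table, and an exon of Psmd1 is shared with Gm21972, which held 0 counts. Psmb5 overlaps the microRNA gene Mir686. The levels of these 9 genes are therefore uncertain, while the other 26 had no such match.

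Promoter windows were available for 28 of the 35 genes, 30 windows in all, from 250 bases before to 50 bases after a start in RefSeq (GRCm38.p6). NRF1, the transcription factor encoded by Nfe2l1 that is known to raise proteasome genes when proteasome capacity is short, binds antioxidant response elements, so the core of that element was searched on both strands (TGACNNNGC). It was found in 5 windows (16.7%), against 12.4% of 32851 RefSeq windows of the same length. The stretches around the 5 matches are shown with the element in capitals, on the strand of the gene and 5′ to 3′, with up to 15 bases on each side. The matches in Psmd12 and Psmc6 read on the opposite strand.
Psmb5 (chr14:54618019-54618057, minus strand): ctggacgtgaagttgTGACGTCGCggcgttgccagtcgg
Psmb6 (chr11:70525333-70525356, plus strand): gcggactaaagagagTGACGGAGC
Psmc6 (chr14:45329582-45329620, plus strand): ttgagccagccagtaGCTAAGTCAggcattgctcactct
Psmd12 (chr11:107479278-107479304, plus strand): tctGCTGTGTCAcatttgcccccctca
Psmd9 (chr5:123228144-123228182, plus strand): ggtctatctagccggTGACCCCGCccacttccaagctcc
The first base of the match lay 47 bases before the start in Psmb5, 9 in Psmb6, 227 in Psmc6, 247 in Psmd12 and 31 in Psmd9. The CCAAT box, searched on both strands, was in 36.7% of the proteasome windows and 37.4% of all windows. The NF-kB consensus was in 1 window (3.33%, Psmd12), against 4.51% of all windows, and no matches of different motifs overlapped. A match is a description of letters in a window, and shares of this size in 30 windows are close to those of all windows.

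The 250 bases before the start are shown for the catalytic gene Psmb5, which had the largest 25HC effect at rest, and for both RefSeq starts of Psma6, which had the largest PAM3 response; capitals mark the antioxidant element in Psmb5 and CCAAT boxes in Psma6, either strand.
Psmb5 (chr14:54617996-54618245, minus strand): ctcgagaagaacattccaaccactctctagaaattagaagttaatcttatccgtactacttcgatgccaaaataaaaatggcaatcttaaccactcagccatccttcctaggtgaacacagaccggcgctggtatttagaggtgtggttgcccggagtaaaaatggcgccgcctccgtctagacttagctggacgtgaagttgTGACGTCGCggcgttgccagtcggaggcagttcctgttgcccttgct
Psma6, first start (chr12:55383972-55384221, plus strand): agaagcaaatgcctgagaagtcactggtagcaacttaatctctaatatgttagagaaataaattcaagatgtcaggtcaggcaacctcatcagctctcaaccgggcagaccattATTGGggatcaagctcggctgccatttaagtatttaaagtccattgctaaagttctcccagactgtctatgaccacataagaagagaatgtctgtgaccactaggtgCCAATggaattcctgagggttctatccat
Psma6, second start (chr12:55398575-55398824, plus strand): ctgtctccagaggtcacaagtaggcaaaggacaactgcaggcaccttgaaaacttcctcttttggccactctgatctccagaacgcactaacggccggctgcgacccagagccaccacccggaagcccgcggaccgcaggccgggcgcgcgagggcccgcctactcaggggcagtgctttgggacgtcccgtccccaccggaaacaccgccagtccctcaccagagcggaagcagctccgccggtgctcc
Both Psma6 windows lack the antioxidant element and the NF-kB consensus as spelled in the search, and the counts do not show which start was used.

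The comparison of PAM3 with rest asked how the proteasome genes respond to a bacterial lipopeptide. In untreated B6 cells PAM3 raised 32 of the 35 genes and lowered none, in the core (14 of 15), base (9 of 9), lid (7 of 8) and assembly factors (2 of 3). The background was 62.1% of 12741 tested genes called, 31.3% higher and 30.8% lower. The median log2 fold change of the 35 genes was 0.95, against 0.00 (0.002) over all tested genes, and the class medians were 0.95 for the core, 0.93 for the base and 0.92 for the lid. In 32 genes all PAM3 libraries lay above all libraries at rest, and in 1, Psmd8, all lay below, against 31.5% of all tested genes above and 31.5% below. Calls are from edgeR's quasi-likelihood test with Benjamini-Hochberg adjustment over all tested genes at an adjusted p below 0.05, and ± after a fold change is its SE.

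Psma6 (chromosome 12, 55384222 to 55418454, plus strand), a subunit of the alpha ring, was higher with PAM3 by more than any other member. It lay at 580, 559 and 692 CPM in PAM3-stimulated B6 libraries, against 112, 85.2 and 105 CPM at rest. The groups did not come near each other, and the log2 fold change was 2.60 ± 0.15 (edgeR adjusted p = 5.77e-09). In Ch25h-/- cells it lay at 541, 459 and 560 CPM with PAM3, against 101, 80.0 and 108 CPM at rest (2.44 ± 0.15, edgeR adjusted p = 1.01e-08). A neighbour looked up after these values were seen, Nfkbia (chromosome 12, 55489410 to 55492647), which encodes an inhibitor of NF-kB and lies 71.0 kb away, had a PAM3 log2 fold change of 3.45 (edgeR adjusted p = 4.12e-08). On the other side, 1110008L16Rik at 1.69 kb had 0.50 (edgeR adjusted p = 0.000366) and Ppp2r3c at 81.2 kb had 0.70 (edgeR adjusted p = 5.94e-05). Farther out on that side, Srp54b at 120 kb had 0.67 (edgeR adjusted p = 0.000371). Aldoart2, at 147 kb on the side of Nfkbia, had 1.89 (edgeR adjusted p = 6.99e-05). Of all tested genes 31.3% were higher with PAM3 in untreated B6.

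Among the catalytic genes, Psmb5 (chymotrypsin-like activity; chromosome 14, 54614119 to 54618022, minus strand) lay at 78.9, 86.5 and 96.2 CPM with PAM3 and at 31.0, 25.2 and 26.8 CPM at rest. Every PAM3 library was above every library at rest, with a log2 fold change of 1.66 ± 0.18 (edgeR adjusted p = 2.28e-06), the largest in the beta ring. Psmb7 (trypsin-like activity) lay at 131, 126 and 167 CPM with PAM3 and 79.6, 56.8 and 67.1 CPM at rest (1.06 ± 0.16, edgeR adjusted p = 3.88e-05). Psmb6 (caspase-like activity; chromosome 11, 70525367 to 70527858, plus strand) lay at 155, 150 and 180 CPM with PAM3 and 96.2, 93.4 and 84.5 CPM at rest (0.82 ± 0.11, edgeR adjusted p = 1.66e-05). For all 3 genes the groups were separate. The smallest rise in the ring was that of Psmb1, a structural beta subunit, with 145, 163 and 197 CPM with PAM3 and 120, 117 and 119 CPM at rest (0.51 ± 0.11, edgeR adjusted p = 0.000893).

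In the base, the ATPase gene Psmc1 lay at 176, 179 and 228 CPM with PAM3 and 105, 93.1 and 94.7 CPM at rest (0.99 ± 0.11, edgeR adjusted p = 2.71e-06). The ATPase gene Psmc3 rose least in the base, with 168, 194 and 224 CPM with PAM3 and 132, 125 and 126 CPM at rest (0.62 ± 0.12, edgeR adjusted p = 0.000509). Neither pair of groups overlapped. The ubiquitin receptor gene Psmd4 lay at 127, 146 and 168 CPM with PAM3 and 90.0, 92.1 and 84.0 CPM at rest (0.73 ± 0.10, edgeR adjusted p = 2.64e-05). In the lid, the deubiquitinase gene Psmd14 lay at 145, 130 and 158 CPM with PAM3 and 70.8, 43.3 and 62.6 CPM at rest (1.30 ± 0.19, edgeR adjusted p = 3.35e-05). Its separation from rest was complete although the resting libraries spread widely. Psmd3, a structural lid subunit, lay at 140, 161 and 169 CPM with PAM3 and 78.8, 70.4 and 69.4 CPM at rest (1.10 ± 0.13, edgeR adjusted p = 2.86e-06). Psmd10, the assembly factor also known as gankyrin, lay at 74.6, 53.5 and 77.3 CPM with PAM3 and 24.2, 23.7 and 24.6 CPM at rest (1.5 ± 0.17, edgeR adjusted p = 2.15e-06), again without overlap.

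The 3 members that did not pass the test in untreated B6 were Psmd8, Psmd9 and Psma8. Psmd8 (chromosome 7, 29174188 to 29180701, minus strand) lay at 155, 155 and 198 CPM with PAM3 and 251, 210 and 215 CPM at rest. All its PAM3 libraries were below all at rest, and the fold change was short of the threshold (-0.41 ± 0.19, edgeR adjusted p = 0.0663) but past it with DESeq2 size factors, the DESeq2 Wald test, the animal as block and 5 other settings. The assembly factor Psmd9 lay at 22.6, 24.9 and 28.5 CPM with PAM3 and 23.1, 26.5 and 25.4 CPM at rest (0.02 ± 0.10, edgeR adjusted p = 0.874). Psma8 lay at 1.66, 1.65 and 1.66 CPM with PAM3 and 1.64, 1.20 and 1.70 CPM at rest (0.14 ± 0.22, edgeR adjusted p = 0.596). Both overlapped with rest. None of the 32 calls was lost under any of the settings tried, and with number 2 left out 32 genes were higher and Psmd8 lower.

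Ch25h-/- cells responded to PAM3 with 32 of 35 genes higher and 0 lower (background 62% of tested genes called, 29.9% higher and 32.1% lower) and a median log2 fold change of 0.93, against -0.04 over all tested genes. The 3 genes without a call were again Psma8, Psmd8 and Psmd9. In 33 genes all PAM3 libraries lay above all libraries at rest and in 0 below, against 33.2 and 33.8% of all tested genes. With number 2 left out 32 genes were higher and Psmd8 lower. The difference between the PAM3 responses of Ch25h-/- and untreated B6 cells was itself tested, and edgeR called 0 of 35 genes; the background was 0% of all genes, with 4.69% at an unadjusted p under 0.05, and the DESeq2 Wald test also called 0 of 35, as did edgeR with number 2 left out. The median absolute difference of the responses was 0.04 (0.044) on the log2 scale and the largest 0.55 (0.554), for Psmd10 (-0.55 ± 0.23, edgeR adjusted p = 1). Psmd10 lay at 57.1, 35.3 and 55.4 CPM in Ch25h-/- cells with PAM3, against 24.3, 27.6 and 24.9 CPM at rest. All stimulated libraries lay above rest, least in replicate 2.

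The catalytic genes of Ch25h-/- cells were each above rest in every PAM3 library. Psmb5 lay at 77.4, 57.6 and 74.2 CPM with PAM3, against 30.3, 18.2 and 26.8 CPM at rest (1.47 ± 0.19, edgeR adjusted p = 8.62e-06). Psmb6 lay at 133, 116 and 130 CPM with PAM3, against 81.1, 65.3 and 80.5 CPM at rest (0.74 ± 0.11, edgeR adjusted p = 4.93e-05), and Psmb7 at 135, 121 and 134 CPM, against 70.3, 48.0 and 68.7 CPM (1.06 ± 0.16, edgeR adjusted p = 4.57e-05). The deubiquitinase gene Psmd14 and the ubiquitin receptor gene Psmd4 were likewise separate from rest. Psmd14 lay at 142, 143 and 152 CPM with PAM3, against 69.5, 40.7 and 62.6 CPM at rest (1.34 ± 0.19, edgeR adjusted p = 2.98e-05). Psmd4 lay at 124, 139 and 143 CPM with PAM3, against 83.3, 79.2 and 89.1 CPM at rest (0.69 ± 0.10, edgeR adjusted p = 4.8e-05). Psma8 lay at 1.53, 1.57 and 2.09 CPM with PAM3, against 1.44, 0.823 and 1.49 CPM at rest (0.45 ± 0.24, edgeR adjusted p = 0.114); its groups did not overlap, and replicate 2 at rest was the lowest.

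In 25HC-treated B6 cells PAM3 raised 26 of 35 genes and lowered none (background 58.9% of tested genes called, 28.5% higher and 30.4% lower), with a median log2 fold change of 0.42, against -0.02 over all tested genes (-0.015). By class 10 of 15 core, 8 of 9 base, 6 of 8 lid and 2 of 3 assembly factor genes rose, with medians of 0.41, 0.56 (0.565), 0.41 and 1.12 (1.125). Psma6 was again the largest, with 392, 428 and 372 CPM with PAM3, against 138, 105 and 124 CPM with 25HC at rest (1.70 ± 0.15, edgeR adjusted p = 2.81e-07). The groups were far apart. Psmb1 lay at 116, 138 and 116 CPM with PAM3 and 133, 125 and 131 CPM at rest (-0.08 ± 0.11, edgeR adjusted p = 0.547), and Psmb4 had 126, 162 and 127 CPM against 136, 116 and 135 CPM (0.10 ± 0.15, edgeR adjusted p = 0.583). Both beta ring genes overlapped with rest. In 29 of the 35 genes all PAM3 libraries lay above all libraries at rest and in 2 below, against 36.4 and 36.2% of all tested genes. Of the 26 calls 14 held under every setting tried; with number 2 left out 19 genes were higher and 1 lower, and with library totals in place of TMM factors 14 were higher and 3 lower (Psmb1, Psmd8 and Psmd9).

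**Figure D2:**
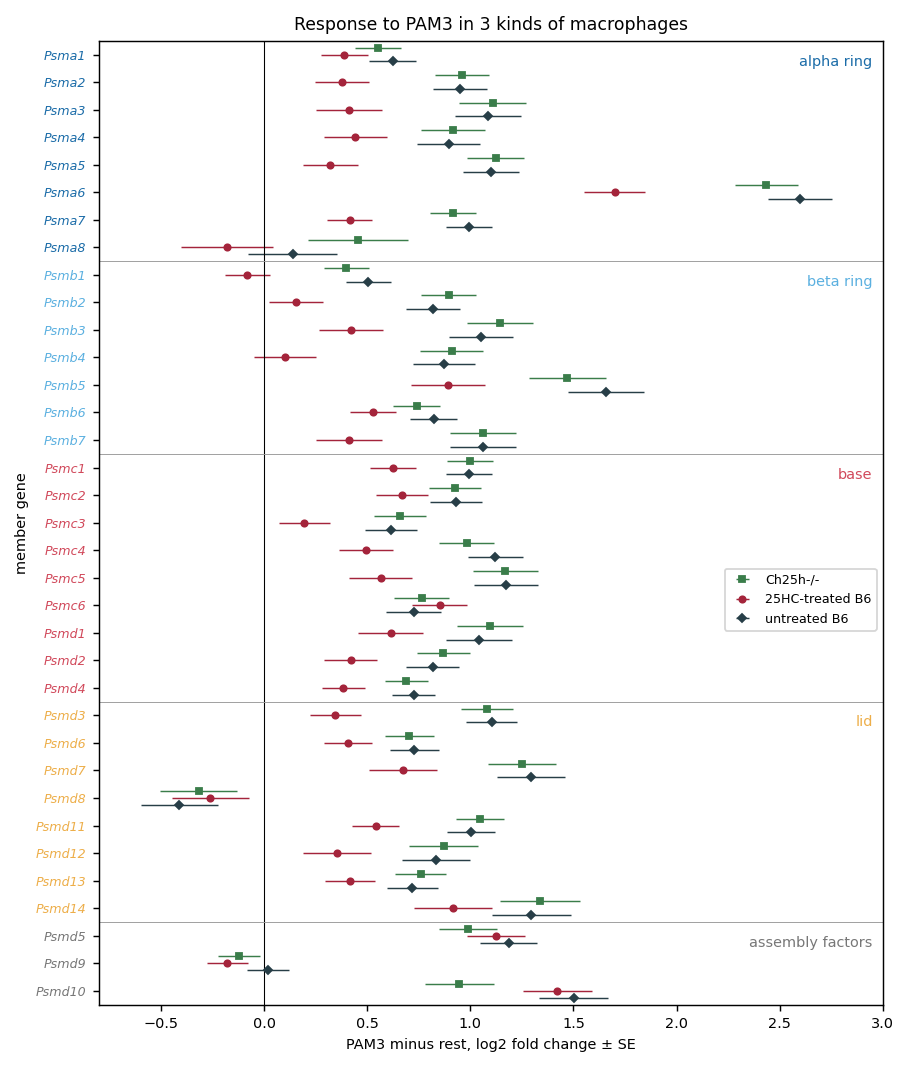
Log2 fold change of PAM3 against rest (horizontal axis, ± SE) for each of the 35 genes, in Ch25h-/- cells (squares), 25HC-treated B6 (circles) and untreated B6 (diamonds), 3 libraries per group. Squares and diamonds lie close together, with medians of 0.93 and 0.95, and Psmd8 is left of 0 in all 3. Circles lie left of diamonds in most genes, with a median difference of -0.45, against -0.08 over all tested genes.

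Treatment of resting B6 cells with 25HC raised 11 of the 35 genes and lowered none, against a background of 26.2% of tested genes called, 14.8% higher and 11.4% lower. The median log2 fold change was 0.30, against -0.01 (-0.012) over all tested genes. By class 4 of 15 core genes (Psma7, Psmb4, Psmb5 and Psmb6), 2 of 9 base genes (Psmc4 and Psmd4), 5 of 8 lid genes (Psmd3, Psmd6, Psmd7, Psmd11 and Psmd12) and 0 of 3 assembly factors rose. Class medians were 0.30 for core and base, 0.44 (0.435) for the lid and 0.07 for the assembly factors. In 14 genes all 25HC libraries lay above all untreated ones and in 0 below, against 22.2 and 20.2% of all tested genes.

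Psmb5 had the largest difference, with 59.4, 39.8 and 54.3 CPM in 25HC-treated cells, against 31.0, 25.2 and 26.8 CPM in untreated cells. The groups were separate, with a log2 fold change of 0.89 ± 0.18 (edgeR adjusted p = 0.00306). Psmb6 lay at 146, 124 and 127 CPM with 25HC and 96.2, 93.4 and 84.5 CPM without (0.53 ± 0.11, edgeR adjusted p = 0.00357). The third catalytic gene, Psmb7, lay at 93.2, 72.7 and 85.0 CPM with 25HC and 79.6, 56.8 and 67.1 CPM without, which overlapped (0.30 ± 0.16, edgeR adjusted p = 0.169). Psmb1 lay at 133, 125 and 131 CPM with 25HC and 120, 117 and 119 CPM without (0.13 ± 0.11, edgeR adjusted p = 0.39). Its groups did not overlap, yet the difference was short of the threshold. In the alpha ring the only call was Psma7, at 123, 101 and 113 CPM with 25HC and 88.9, 84.7 and 80.8 CPM without (0.40 ± 0.11, edgeR adjusted p = 0.0145), which was lost without replicate 1 or 3 of the treated or replicate 3 of the untreated group.

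In the regulatory particle, the ATPase gene Psmc4 lay at 106, 79.3 and 99.3 CPM with 25HC and 70.3, 55.6 and 60.4 CPM without (0.61 ± 0.13, edgeR adjusted p = 0.00401), while Psmc3 had 145, 127 and 143 CPM with 25HC and 132, 125 and 126 CPM without (0.11 ± 0.12, edgeR adjusted p = 0.526). The Psmc4 groups were separate and those of Psmc3 overlapped. Psmd4 lay at 118, 102 and 108 CPM with 25HC and 90.0, 92.1 and 84.0 CPM without (0.30 ± 0.10, edgeR adjusted p = 0.0425), a call lost with the animal as block and without any 1 of 5 of the 6 libraries. In the lid, Psmd3 lay at 117, 89.4 and 110 CPM with 25HC and 78.8, 70.4 and 69.4 CPM without (0.53 ± 0.12, edgeR adjusted p = 0.00653). Its libraries did not overlap either. The deubiquitinase gene Psmd14 lay at 89.3, 63.2 and 78.9 CPM with 25HC and 70.8, 43.3 and 62.6 CPM without (0.39 ± 0.19, edgeR adjusted p = 0.14). Psmd13 lay at 94.6, 75.5 and 89.2 CPM with 25HC and 80.7, 64.8 and 74.1 CPM without (0.24 ± 0.12, edgeR adjusted p = 0.155). Both overlapped, replicate 2 being the lowest of each group. Psmd8 lay at 333, 298 and 312 CPM with 25HC and 251, 210 and 215 CPM without; this complete separation gave 0.48 ± 0.19 (edgeR adjusted p = 0.0679), past the threshold with the animal as block.

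The assembly factors showed small differences at rest. Psmd5 lay at 35.7, 28.2 and 33.4 CPM with 25HC and 32.5, 26.4 and 32.0 CPM without (0.10 ± 0.14, edgeR adjusted p = 0.628). Psmd10 lay at 28.7, 23.3 and 24.1 CPM with 25HC and 24.2, 23.7 and 24.6 CPM without (0.07 ± 0.16, edgeR adjusted p = 0.784), and Psma8 at 1.70, 1.35 and 1.45 CPM with 25HC and 1.64, 1.20 and 1.70 CPM without (-0.01 ± 0.22, edgeR adjusted p = 0.989). All 3 pairs overlapped. Of the 11 calls 4 (Psmb5, Psmb6, Psmc4 and Psmd3) held under every setting tried. The count was 4 without replicate 1 or without replicate 3 of the 25HC group, 6 without replicate 2 and 4 without replicate 3 of the untreated group, and 14 with number 2 left out of all groups.

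Under PAM3, of the 35 genes 5 were lower in 25HC-treated than in untreated cells, all in the core (Psma2, Psma5, Psma6, Psmb1 and Psmb2), and 2 were higher, the base gene Psmc6 and the lid gene Psmd8; the background was 45.1% of tested genes called, 23.6% lower and 21.5% higher. The median log2 fold change was -0.13, against -0.04 (-0.035) over all tested genes. Class medians were -0.34 for the core, -0.10 for the base, -0.02 for the lid and -0.01 for the assembly factors. The core difference was uneven between mice. As class medians of log2 CPM without Psma8, it was -0.19, -0.07 and -0.57 within mice 1, 2 and 3. For the base it was 0.03, 0.11 and -0.27, and for the lid -0.01, 0.11 and -0.26. Mouse 3 gave the library with PAM3 alone that was highest for 32 of 35 genes, against 37.7% of all tested genes. In 11 genes all 25HC libraries lay below all untreated ones and in 2 above, against 29.9 and 28.5% of all tested genes.

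Psma5 lay at 22.0, 24.3 and 21.8 CPM with 25HC and PAM3, against 28.4, 35.2 and 43.0 CPM with PAM3 alone. The groups did not overlap, and the log2 fold change was -0.65 ± 0.13 (edgeR adjusted p = 0.00107). Its pseudogene Gm8394 differed likewise (-0.68, edgeR adjusted p = 0.000356), and how reads were divided between the 2 loci was not tested. Psma6 was below every library without 25HC, at 392, 428 and 372 CPM with 25HC and PAM3, against 580, 559 and 692 CPM with PAM3 alone (-0.62 ± 0.15, edgeR adjusted p = 0.00279). Psmb1 lay at 116, 138 and 116 CPM with 25HC and PAM3, against 145, 163 and 197 CPM with PAM3 alone (-0.45 ± 0.11, edgeR adjusted p = 0.00329), and also did not overlap. Psma1 lay at 184, 189 and 188 CPM with 25HC and PAM3 and 187, 174 and 215 CPM with PAM3 alone, with overlap (-0.04 ± 0.11, edgeR adjusted p = 0.806). Psma8 lay at 1.26, 1.46 and 1.23 CPM with 25HC and PAM3, against 1.66, 1.65 and 1.66 CPM with PAM3 alone; these groups were separate at a level below that of the other 34 genes (-0.32 ± 0.21, edgeR adjusted p = 0.232).

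The catalytic genes had no call under PAM3. Psmb5 lay at 89.6, 106 and 89.5 CPM with 25HC and PAM3, against 78.9, 86.5 and 96.2 CPM with PAM3 alone (0.12 ± 0.18, edgeR adjusted p = 0.605). Psmb6 lay at 186, 208 and 178 CPM with 25HC and PAM3 and 155, 150 and 180 CPM with PAM3 alone (0.24 ± 0.11, edgeR adjusted p = 0.091). Psmb7 lay at 107, 121 and 106 CPM with 25HC and PAM3 and 131, 126 and 167 CPM with PAM3 alone (-0.35 ± 0.16, edgeR adjusted p = 0.0848). The groups overlapped for Psmb5 and Psmb6 and did not for Psmb7.

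The 2 genes that were higher with 25HC under PAM3 encode an ATPase of the base and a lid subunit. Psmc6 lay at 212, 196 and 199 CPM with 25HC and PAM3, against 177, 138 and 151 CPM with PAM3 alone (0.38 ± 0.13, edgeR adjusted p = 0.0272). Psmd8 lay at 258, 285 and 244 CPM with 25HC and PAM3, against 155, 155 and 198 CPM with PAM3 alone (0.63 ± 0.19, edgeR adjusted p = 0.0119). Neither pair overlapped. Psmc4, the strongest base gene at rest, lay at 129, 144 and 128 CPM with 25HC and PAM3 and 127, 129 and 150 CPM with PAM3 alone (-0.02 ± 0.13, edgeR adjusted p = 0.937). Psmd14 lay at 150, 144 and 142 CPM with 25HC and PAM3 and 145, 130 and 158 CPM with PAM3 alone (0.01 ± 0.19, edgeR adjusted p = 0.971), and Psmd4 at 141, 151 and 137 CPM against 127, 146 and 168 CPM (-0.04 ± 0.10, edgeR adjusted p = 0.803). All 3 pairs overlapped. Psmd9 lay at 22.8, 24.1 and 22.5 CPM with 25HC and PAM3 and 22.6, 24.9 and 28.5 CPM with PAM3 alone (-0.13 ± 0.10, edgeR adjusted p = 0.311), and Psmd10 at 68.0, 71.1 and 64.8 CPM against 74.6, 53.5 and 77.3 CPM (-0.01 ± 0.16, edgeR adjusted p = 0.969).

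Of these 7 calls Psma5, Psma6 and Psmb1 held under every setting tried, and Psma2 and Psmb2 were lost with the animal as block (6 calls, 4 lower and 2 higher). Both were also lost with no filter, with only the groups compared, with library totals and without some single libraries. Psma2 was called in 7 of 14 settings and Psmb2 in 6 of 14. Psmd8 was lost without replicate 2 of untreated B6 with PAM3 (edgeR adjusted p = 0.0512), and Psmc6 without replicate 1 or 3 of B6 with 25HC and PAM3 or replicate 2 or 3 of B6 with PAM3 alone. The count was 4 without replicate 1 or without replicate 3 of B6 with 25HC and PAM3, and 11 with number 2 left out of all groups.

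**Figure D3:**
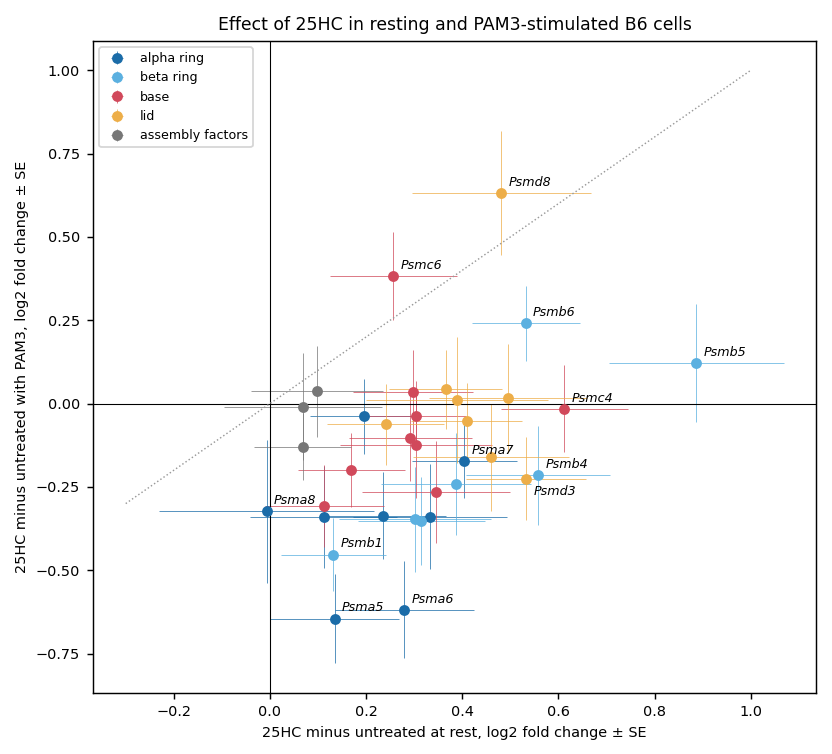
Log2 fold change of 25HC against untreated B6 (± SE) at rest (horizontal axis) and with PAM3 (vertical axis) for the 35 genes, coloured by class; the dotted line marks equal values. Nearly all points lie right of 0 and below the line, core genes lowest, and Psmd8 and Psmc6 lie above it.

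The test of whether 25HC altered the PAM3 response, the interaction, called 15 of 35 genes, all with a smaller response after 25HC (background 28.3% of tested genes called, 15.8% lower and 12.5% higher). This test uses the same 4 groups as the comparisons above. They were 11 of 15 core genes, with 5 of 8 in the alpha ring (Psma2, Psma3, Psma5, Psma6 and Psma7) and 6 of 7 in the beta ring (all but Psmb6), 2 of 9 base genes (Psmc4 and Psmc5), 2 of 8 lid genes (Psmd3 and Psmd11) and 0 of 3 assembly factors. The median interaction was -0.45 on the log2 scale, against -0.08 (-0.078) over all tested genes. It was -0.63 for the core, -0.40 for the base, -0.42 for the lid and -0.08 for the assembly factors. The largest were -0.90 ± 0.21 for Psma6 (edgeR adjusted p = 0.00613), -0.78 ± 0.19 for Psma5 (edgeR adjusted p = 0.00826), -0.77 ± 0.21 for Psmb4 (edgeR adjusted p = 0.0148), followed by Psmb5 and by Psmd3 (-0.76 ± 0.18, edgeR adjusted p = 0.00654).

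The catalytic gene Psmb5, with an interaction of -0.76 ± 0.25 (edgeR adjusted p = 0.0353), was higher with 25HC at rest and had no call under PAM3. Psma6 had no call at rest, with 138, 105 and 124 CPM with 25HC against 112, 85.2 and 105 CPM without (0.28 ± 0.15, edgeR adjusted p = 0.165), and was lower with 25HC under PAM3. The genes with interactions nearest 0 or above were Psmd8 (0.15 ± 0.26, edgeR adjusted p = 0.696), Psmc6 (0.13 ± 0.19, edgeR adjusted p = 0.64), Psmd5 (-0.06 ± 0.19, edgeR adjusted p = 0.835) and Psmd10 (-0.08 ± 0.23, edgeR adjusted p = 0.822). Of the 15 calls 7 held under every setting tried (Psma5, Psma6, Psma7, Psmb1, Psmb2, Psmb4 and Psmd3). The count was 7 without replicate 1 or replicate 3 of 25HC-treated B6 at rest or with PAM3 or replicate 3 of untreated B6 with PAM3, 8 without replicate 2 or 3 of untreated B6 at rest, and 23 with number 2 left out of all groups.

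**Figure D4:**
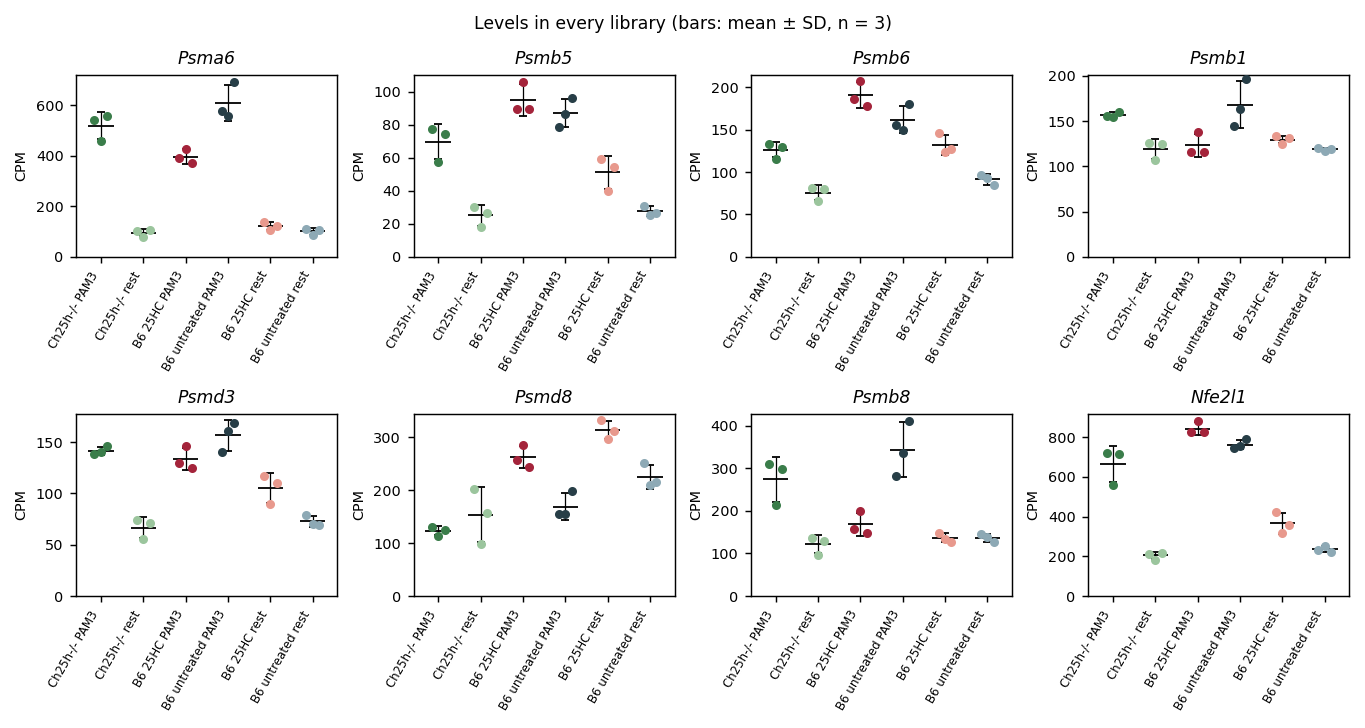
CPM (vertical axes, from 0) of 6 member genes, of the immunoproteasome gene Psmb8 and of Nfe2l1 in every library of the 6 groups, with mean ± SD (n = 3). Psma6 and Psmb8 are lower in 25HC-treated than in untreated B6 with PAM3, Psmb5 and Psmb6 are higher with 25HC at rest, and Psmd8 is higher with 25HC in both states.

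Core, base and lid were also set side by side within each library, as class medians of log2 CPM relative to untreated B6 at rest and without Psma8. With 25HC and PAM3 the base exceeded the core by 0.295, 0.059 and 0.205 in mice 1, 2 and 3, against 0.079, -0.127 and -0.091 with PAM3 alone. The groups overlapped, but within each mouse the difference was larger with 25HC, by 0.22, 0.19 and 0.30. The lid exceeded the core by 0.246, 0.074 and 0.189 with 25HC and PAM3, against 0.064, -0.108 and -0.115 with PAM3 alone, or 0.18, 0.18 and 0.30 more within each mouse, and these groups did not overlap. At rest base minus core was -0.015, 0.006 and -0.045 with 25HC, against 0.039, -0.013 and -0.025 without, which overlapped. Lid minus core at rest was 0.133, 0.070 and 0.152 with 25HC, against 0.024, -0.042 and 0.040 without. Those values did not overlap and differed by 0.11 in each mouse.

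The PAM3 response was smaller with 25HC in each of the 3 mice, for core, base and lid alike. For the core it was 0.15, 0.74 and 0.29 on the log2 scale in 25HC-treated B6, against 0.67, 1.06 and 1.20 in untreated B6. For the base it was 0.46, 0.79 and 0.54 with 25HC, against 0.71, 0.94 and 1.13 without. For the lid it was 0.26, 0.74 and 0.33 with 25HC, against 0.72, 0.99 and 1.05 without. Mouse 2 had the largest response of the 3 in the 25HC arm, and its libraries at rest are the ones with the lowest values. In Ch25h-/- cells the core responses were 0.79, 1.18 and 0.91, within the range of untreated B6.

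**Figure D5:**
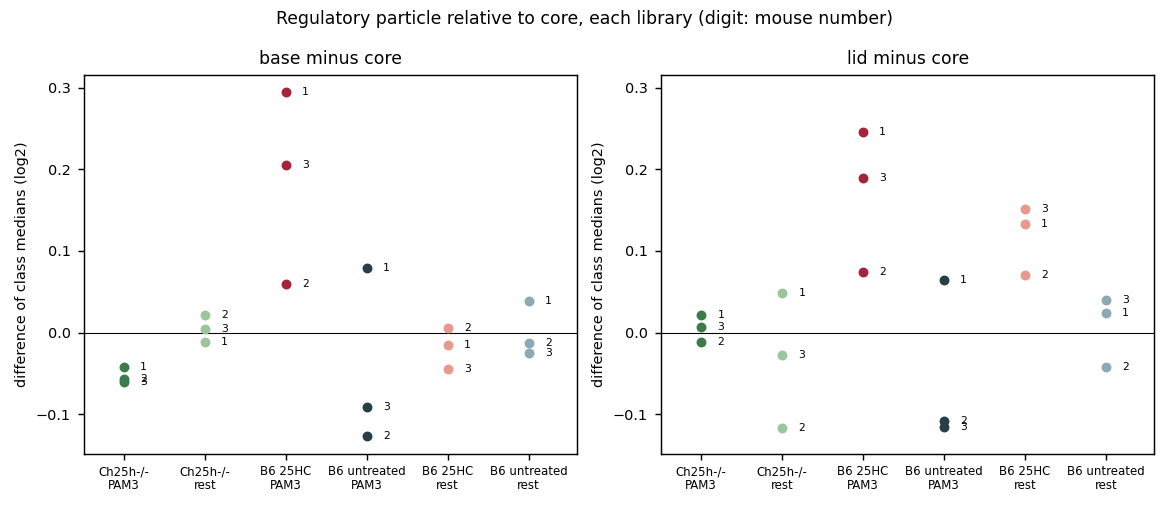
Base minus core (left) and lid minus core (right) in each library, as differences of class medians of log2 CPM relative to untreated B6 at rest (vertical axis); digits are mouse numbers. B6 libraries with 25HC and PAM3 lie at 0.059 to 0.295 for the base and 0.074 to 0.246 for the lid, and those with PAM3 alone at -0.127 to 0.079 and -0.115 to 0.064, so that the base values overlap and the lid values do not.

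Loss of Ch25h, which encodes an enzyme that makes 25HC, was examined next. The counts do not measure 25HC itself. In the untreated B6 libraries used for comparison, Ch25h lay at 3.55, 1.66 and 2.14 CPM with PAM3 and at 20.4, 3.16 and 10.2 CPM at rest. At rest edgeR called 0 of 35 (background 0.00785% of tested genes, 5.53% at an unadjusted p under 0.05), and the DESeq2 Wald test called 0, as did edgeR with number 2 left out. The median log2 fold change was -0.08, against -0.01 (-0.006) over all tested genes. The extremes were -0.55 ± 0.19 for Psmd8 (edgeR adjusted p = 0.731) and 0.08 ± 0.17 for Psmd10 (edgeR adjusted p = 1). Psmd8 lay at 203, 99.4 and 158 CPM in Ch25h-/- cells, against 251, 210 and 215 CPM in B6, and Psmb6 at 81.1, 65.3 and 80.5 CPM, against 96.2, 93.4 and 84.5 CPM in B6 (-0.27 ± 0.11, edgeR adjusted p = 0.859). In these 2 of 35 genes all Ch25h-/- libraries lay below those of B6 at rest, a share near the 5.49% of all tested genes.

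With PAM3 edgeR called 0 of 35 genes between Ch25h-/- and B6 cells (background 0.173% of tested genes, 0.0471% higher and 0.126% lower, with 14% at an unadjusted p under 0.05; DESeq2 Wald test 0), and the median was -0.10, against -0.04 (-0.044) over all tested genes. Psmb6 lay at 133, 116 and 130 CPM in Ch25h-/- cells and 155, 150 and 180 CPM in B6 (-0.35 ± 0.11, edgeR adjusted p = 0.156). Psmd8 lay at 131, 114 and 125 CPM in Ch25h-/- cells and 155, 155 and 198 CPM in B6 (-0.46 ± 0.19, edgeR adjusted p = 0.273). Both were below all B6 libraries, as were Psmb5 and Psmc4; these are 4 of 35 genes, and 13.3% of all tested genes lay below in the same way. Psmb5 lay at 77.4, 57.6 and 74.2 CPM in Ch25h-/- cells and 78.9, 86.5 and 96.2 CPM in B6 (-0.32 ± 0.18, edgeR adjusted p = 0.431). With number 2 left out Psmd10 was called lower, and no other of the 35 genes was. Over all 12741 tested genes 386 were called under that setting, against 22 in the main fit.

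The products of the immunoproteasome genes Psmb8, Psmb9 and Psmb10 replace catalytic subunits within the core, and Psme1 and Psme2 encode the PA28 activator. All 5 genes were lower with 25HC under PAM3, with a median log2 fold change of -1.23. Of all tested genes 23.6% were lower, and their median was -0.04 (-0.035). Psmb8 lay at 157, 199 and 149 CPM with 25HC and PAM3, against 283, 335 and 412 CPM with PAM3 alone (-1.03 ± 0.17, edgeR adjusted p = 0.000233). Its groups did not overlap. PAM3 raised 4 of the 5 in untreated B6, all but Psmb9 (0.04 ± 0.17, edgeR adjusted p = 0.842), and 25HC at rest lowered 1 of 5, Psmb9 (-0.64 ± 0.17, edgeR adjusted p = 0.0144). Among all tested genes 31.3% were higher with PAM3 in untreated B6 and 11.4% lower with 25HC at rest. The interaction was called lower for all 5, against 15.8% of all tested genes.

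Of 9 genes of NRF1 control, 5 were higher with 25HC at rest, 4 higher and 1 lower with 25HC under PAM3, and 5 higher and 2 lower with PAM3 in untreated B6. Of all tested genes 14.8% were higher with 25HC at rest, and 21.5% were higher and 23.6% lower with 25HC under PAM3. For PAM3 in untreated B6 the shares were 31.3% higher and 30.8% lower. Nfe2l1, which encodes NRF1 itself, lay at 424, 319 and 358 CPM with 25HC at rest, against 234, 254 and 222 CPM without (0.63 ± 0.12, edgeR adjusted p = 0.00245). With PAM3 it lay at 823, 882 and 824 CPM with 25HC and 743, 754 and 790 CPM without (0.15 ± 0.12, edgeR adjusted p = 0.358). Both pairs were separate, and PAM3 itself raised it by 1.68 ± 0.13 in untreated B6 (edgeR adjusted p = 5.54e-08). Ddi2, the protease that activates NRF1, had -0.29 ± 0.13 with 25HC at rest (edgeR adjusted p = 0.108) and fell by 0.52 with PAM3 in untreated B6 (SE 0.13, edgeR adjusted p = 0.00223). The antioxidant factor gene Nfe2l2 fell by 0.87 with PAM3 in untreated B6 (SE 0.17, edgeR adjusted p = 0.000344) and was 1.17 ± 0.17 higher with 25HC under PAM3 (edgeR adjusted p = 5.63e-05).

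Of 5 proteasome assembly chaperones in the table, 2 were higher with 25HC at rest (Psmg1, 0.75 ± 0.16, edgeR adjusted p = 0.00374, and Psmg3, 0.41 ± 0.13, edgeR adjusted p = 0.0315), 1 was lower with 25HC under PAM3 (Pomp, -0.50 ± 0.14, edgeR adjusted p = 0.00717), and 3 rose with PAM3 in untreated B6. Of 10 activators and associated proteins 2 rose with 25HC at rest, the base ubiquitin receptor gene Adrm1 (0.85 ± 0.14, edgeR adjusted p = 0.000753) and Psme3 (0.52 ± 0.14, edgeR adjusted p = 0.0144), 3 were higher with 25HC under PAM3, and 7 rose and 1 fell with PAM3 in untreated B6. Of 11 genes of p97 and ubiquitin shuttles, which deliver substrates, 7 were higher with 25HC at rest. Under PAM3 4 of the 11 were higher and 1 lower with 25HC, and PAM3 in untreated B6 raised 9 and lowered 2. Of 6 ubiquitin and E1 genes 2 were higher with 25HC at rest, and 3 under PAM3, among them Ubb, which encodes polyubiquitin (0.62 ± 0.12, edgeR adjusted p = 0.000548). The background for these lists was 14.8% of all tested genes higher with 25HC at rest. With 25HC under PAM3 it was 21.5% higher and 23.6% lower, and with PAM3 in untreated B6 31.3% higher and 30.8% lower. Whether these short lists differ from that background was not tested.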

How the data were processed

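The deposited values were raw counts per gene for 18 libraries in 6 groups of 3, with no normalization. Per the submitters' processing notes, FastQC 0.11.9, GSNAP, featureCounts of Subread 1.5.2 and edgeR 3.26.8 were used by the authors with GRCm38/mm10; neither the strand setting nor the counting of multiply aligned reads was stated. All sample columns were used. No 2 libraries were identical.

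One model with a mean per group was fitted to all 18 libraries with edgeR 4.0.16 (TMM scaling, filterByExpr, robust quasi-likelihood F test) in R 4.3.3 with limma 3.58.1, on 12741 genes and with 12 residual degrees of freedom. There were 9 comparisons, with Benjamini-Hochberg adjustment over all tested genes and calls at an adjusted p below 0.05. The SE was taken from the F statistic, as the size of the log2 fold change over the root of F. No prior count was set for the fold changes, so the edgeR default applied. A prior count of 2 was used for the log2 CPM behind the principal components and the correlations between libraries. CPM were computed on TMM-scaled library sizes and divided by GENCODE M21 transcript length where genes were compared. Copies were searched with blastn 2.17.0 at 95% identity over 200 bases. The procedure was tested on simulated data. Python 3.11.15, numpy 2.4.6, pandas 2.3.3 and matplotlib 3.10.9 were used for summaries.

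Named genes were the catalytic genes, Psmd14, Psmd4, Psma8 and Psmb11 with their level in every library, and in each class of the 25HC comparisons and of PAM3 in untreated B6 the genes with the smallest and largest adjusted p, with other called genes given by symbol or count. Psmd8 at rest, Psma6 at rest and the neighbours of Psma6 were added after their values were seen. The members and gene lists were chosen with earlier results of these data known.

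Alternatives were DESeq2 1.42.0 size factors and Wald test, no filter, a minimum of 1 CPM in 3 libraries, only the groups compared, a replicate block and each library left out. The block was the animal for comparisons within a genotype and for the interactions, and the replicate number for Ch25h-/- against B6. Leaving out number 2 in every group and scaling by library totals were added after the data were seen. Libraries of B6 cells with the same number come from the same mouse per the labels, as do those of Ch25h-/- cells. Correlations of their deviations from the group means were 0.448, 0.581 and 0.348 for 25HC at rest and 0.406, 0.377 and -0.162 for 25HC with PAM3. They were 0.226, 0.306 and -0.0777 for PAM3 in untreated B6, 0.211, 0.196 and 0.114 in 25HC-treated B6 and 0.193, 0.242 and 0.197 in Ch25h-/- cells. Across genotypes a number marks different mice, and the correlations were 0.574, 0.705 and 0.327 at rest and 0.322, 0.459 and 0.0949 with PAM3, so libraries with the same number deviated together there too; what the numbers share is not given in the labels.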

Additional observations from a re-analysis of the deposited data

Results flagged for a closer look

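The PAM3 response differed between 25HC-treated and untreated B6 cells by a test of the difference itself (edgeR's interaction, adjusted p below 0.05) for 15 of the 35 genes. The differences, as the response with 25HC minus that without on the log2 scale, were all negative. In the alpha ring they were -0.9 for Psma6, -0.78 for Psma5, -0.67 for Psma3, -0.58 for Psma7 and -0.57 for Psma2. In the beta ring they were -0.77 for Psmb4, -0.76 for Psmb5, -0.67 for Psmb2, -0.65 for Psmb7, -0.63 for Psmb3 and -0.59 for Psmb1. In the base they were -0.63 for Psmc4 and -0.61 for Psmc5, and in the lid -0.76 for Psmd3 and -0.46 for Psmd11. The background was 15.8% of tested genes with a smaller response after 25HC.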

How the results depend on the processing

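No call among the 35 genes reversed its direction under any setting run. The count was 0 under every setting for Ch25h-/- against B6 at rest and for the genotype interaction, and 32 to 33 for PAM3 against rest in untreated B6 and in Ch25h-/- cells. For 25HC at rest (11) no call was lost with library totals, and Psmb2, Psmb3, Psmc2 and Psmd8 were gained. The count for that comparison was 6 with no filter, 7 with only the groups compared and 4 to 14 with 1 library left out. For 25HC under PAM3 (7) it was 4 to 11 with libraries left out, the 11 with number 2 removed from every group. For PAM3 in 25HC-treated B6 (26) it was 17 with library totals and 19 to 26 with libraries left out. For the interaction (15) it was 7 with no filter and 7 to 23 with libraries left out. Between Ch25h-/- and B6 cells under PAM3 (0) it was 0 to 1. The causes were not tested. With the replicate block the counts were 12, 6, 33, 27, 32 and 16 for 25HC at rest, 25HC under PAM3, the 3 PAM3 responses (untreated B6, B6 with 25HC, Ch25h-/-) and the interaction, and 0 for genotype. Beyond the calls given above, the block gained Psmc6 at rest and Psma4 under PAM3 with 25HC, Psmd12 for PAM3 in 25HC-treated B6, Psmd7 for the interaction and Psmd8, lower, for PAM3 in untreated B6.

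In the same 3 PAM3 responses the median log2 fold change of all genes was -0.2, -0.199 and -0.197 with library totals, against 0.002, -0.015 and -0.037 with TMM, and the share of calls that were higher was 36.2% against 50.4%, 33.7% against 48.4% and 36.9% against 48.2% with TMM. The median of the 35 genes minus that of all genes was 0.943, 0.432 and 0.963, against 0.948, 0.431 and 0.964. Over all genes the number called for Ch25h-/- against B6 was 1 at rest and 22 under PAM3 with edgeR, 21 and 404 with the DESeq2 Wald test, 14 and 368 with the replicate number as block and 0 and 0 with only the groups compared. Across genotypes that number marks different mice, so this block is no pairing by animal. With number 2 left out of all groups it was 2 at rest and 386 under PAM3.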
